A study of Homo sapiens with 24 samples.

Results

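The AP-1 transcription factor genes examined here were FOS, FOSB, FOSL1, FOSL2, JUN, JUNB, JUND and ATF3. These 8 genes were found by symbol among 22925 gene symbols of the deposited table, and the FPKM of each gene was summed over its transcripts. All 8 were above 0 in each of the 24 libraries. Of the 8, 7 were among the 7860 genes tested; FOSB had a mean under 1 FPKM and its values are given without a test.

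The libraries were made from the cytoplasmic RNA of U2OS, an established line from a human osteosarcoma. Its cells had received either control siRNA or siRNA whose label names knockdown of the long PAN3 isoform, of the short one, or of both isoforms together. PAN3 is the adaptor subunit of the PAN2-PAN3 deadenylase, which shortens poly(A) tails. Each of the 4 series was sampled at 0, 0.5, 1, 2, 4 and 6 h of actinomycin D, an inhibitor of transcription, with 1 library for each series and time. All groups share the line, the transfection and the drug; no untransfected cells were included. The series are called control, long-labelled, short-labelled and both-labelled below, because a loss of PAN3 was not seen in the table. PAN3 was listed as a single transcript, which cannot separate isoforms. Its median over 6 times was 0.898 FPKM in control, 0.817 in the long-labelled, 2.28 in the short-labelled and 1.68 in the both-labelled series. PAN2, the catalytic partner, had a median of 10.2 FPKM in control and 7.69 in the long-labelled series. It was listed at 0 in 5 of 6 libraries of both other series, with highest values of 6.12 FPKM in the short-labelled and 5.83 in the both-labelled series. PAN2 was also listed at 0 in 1 long-labelled library, and PAN3 in 1 control library. A 0 in this table can be a failed estimate, so these values do not show a loss of PAN2.

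AP-1 is a dimeric transcription factor of the basic leucine zipper class. JUN proteins pair with themselves or with FOS proteins, whereas FOS proteins need a JUN partner. ATF3, a stress-induced member of the ATF family, also pairs with JUN proteins. Several of these genes are immediate-early genes: growth factors and stress induce them within minutes, and their mRNAs are short-lived, in part through AU-rich elements in the 3′ UTR that recruit deadenylases. JUND is the member usually described as more constantly expressed.

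The AU-rich letters are shown first because the siRNAs were labelled as knockdowns of isoforms of PAN3, a subunit of a deadenylase. Each of the 8 genes was matched through its RefSeq transcript to a GENCODE 29 transcript (GRCh38), and the letters ATTTA were searched on the transcript strand of the 3′ UTR. The window of 30 bases with the most ATTTA copies is printed for 6 genes, 5′ to 3′, with each copy in capitals. These genes range from fast to slow declines over 0 to 2 h and are not printed in that order.
FOS: tgtgtttttaATTTATTTAttaagatggat
JUNB: atatatttgtgtATTTAacagggaggggaa
JUN: tccagaaaggatATTTAagaaaatacaata
FOSL2: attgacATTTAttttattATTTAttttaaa
JUND: cgattctgccctATTTAtgtttctactcgg
ATF3: ctcaactccaggATTTAggccttaacacac
At least 1 ATTTA was present in 68.9% of the 3′ UTRs of the 7426 tested genes that could be matched. FOS had 5 copies in a 3′ UTR of 806 bases, and 8.60% of 872 tested genes with 3′ UTRs of like length had as many. It was also the member with the overlapping form ATTTATTTA, found in 3.78% of those like-length UTRs. FOSL2 had 9 copies in 4864 bases, JUN 3 in 1287, JUNB 2 in 500, JUND 1 in 681 and ATF3 3 in 1222. For these 5 genes, between 24.8% and 61.8% of UTRs of like length had as many copies. The AP-1 genes other than FOS did not hold a rare number of these letters for their UTR length. A match describes letters, and says nothing of binding.

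Facts on the libraries bear on all results. Totals ran from 324072 to 384287 FPKM per library, and 8973 to 9704 genes reached 1 FPKM. The depth in reads is unknown, so counting errors cannot be given. VIM, a mesenchymal marker, had medians of 466 to 818 FPKM in the 4 series and was listed at 0 in 1 control library. Of the other 7 mesenchymal and bone markers, COL1A1, a collagen chain, had medians of 10.7, 17.8, 61.7 and 52.4 FPKM in the control, long-, short- and both-labelled series, with 3, 2, 1 and 1 libraries listed at 0. RUNX2, a factor of bone cells, was at 0.765 to 1.93 FPKM in the short-labelled series and did not pass 0.635 FPKM in the others. SPARC did not pass 1.11 FPKM, and COL1A2, ALPL, SP7 and BGLAP did not pass 0.0591 FPKM in any library, though a 0 in this table can be a failed estimate. The summed FPKM of the 8 markers was 21.9 to 564 in control, 421 to 734 in the long-labelled, 698 to 1129 in the short-labelled and 542 to 1014 in the both-labelled series. Of 12 markers of other cell types, 10 stayed under 1 FPKM in every library, the exceptions being the keratins KRT8 and KRT18. The summed FPKM of the 12 was 373 to 497 in control, 269 to 488 in the long-labelled, 129 to 605 in the short-labelled and 224 to 460 in the both-labelled series. KRT8 was listed at 0 in 3 short-labelled libraries and reached 327 FPKM in that series, so the low end there can come from failed estimates of this gene. Values from a bulk population cannot tell fewer expressing cells from less RNA per cell.

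In the control series, AP-1 mRNAs made up a pool of 416 FPKM at 0 h, in which ATF3 and JUND were the largest parts. ATF3 stood at 106.6 FPKM, JUND at 98.8, JUNB at 63.5, FOSL1 at 56.8, FOSL2 at 50.8 and JUN at 30.3. FOS at 5.56 and FOSB at 3.39 FPKM were far lower. With 1 library per time, neighbours in this order have no spread of their own at 0 h. The cells thus held mostly JUND, JUNB, ATF3 and the FOS-related genes FOSL1 and FOSL2, with little FOS mRNA.

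Among the 3 JUN genes in the control series, JUNB and JUN fell faster at first than JUND. No test compared members with each other. JUNB, which is often a weaker activator than JUN, was at 63.5, 14.2, 6.79, 3.63, 3.97 and 4.30 FPKM at the 6 times. It thus lost most of its signal within 0.5 h, reached 50% of its start at 0.231 h by interpolation between log2 values, and was flat from 2 h on. JUN, the founding member, was at 30.3, 13.4, 8.54, 4.16, 3.59 and 2.69 FPKM, with 50% of its start at 0.423 h. JUND, which can restrain proliferation, was at 98.8, 77.3, 53.0, 31.5, 12.7 and 8.26 FPKM. Its decline was slower and went on to the last time, with 50% of its start at 1.13 h.

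The FOS family declined fast as well. FOS, the prototype immediate-early gene, was at 5.56, 1.95, 2.03, 0.778, 0.797 and 0.792 FPKM, with 50% of its start at 0.331 h. FOSB, a close relative, was at 3.39, 1.68, 1.49, 0.525, 0.482 and 0.588 FPKM. Both sat near or under 1 FPKM from 2 h on, where the scatter of single libraries is largest on a log scale. FOSL1, which encodes the FOS-related protein FRA1 and lacks the strong activation domain of FOS, was at 56.8, 34.4, 19.5, 11.2, 7.66 and 8.31 FPKM. FOSL2, which encodes FRA2, was at 50.8, 14.9, 11.8, 7.91, 4.93 and 16.3 FPKM, so that its 6 h library stood above those from 0.5 to 4 h. ATF3 was at 106.6, 73.6, 67.5, 52.5, 42.6 and 29.5 FPKM, with 50% of its start at 1.94 h, later than in any other member. Over 0 to 6 h FOSL2 kept more of its start, 32.0% against 27.6% for ATF3, through its 6 h library.

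**Figure D1:**
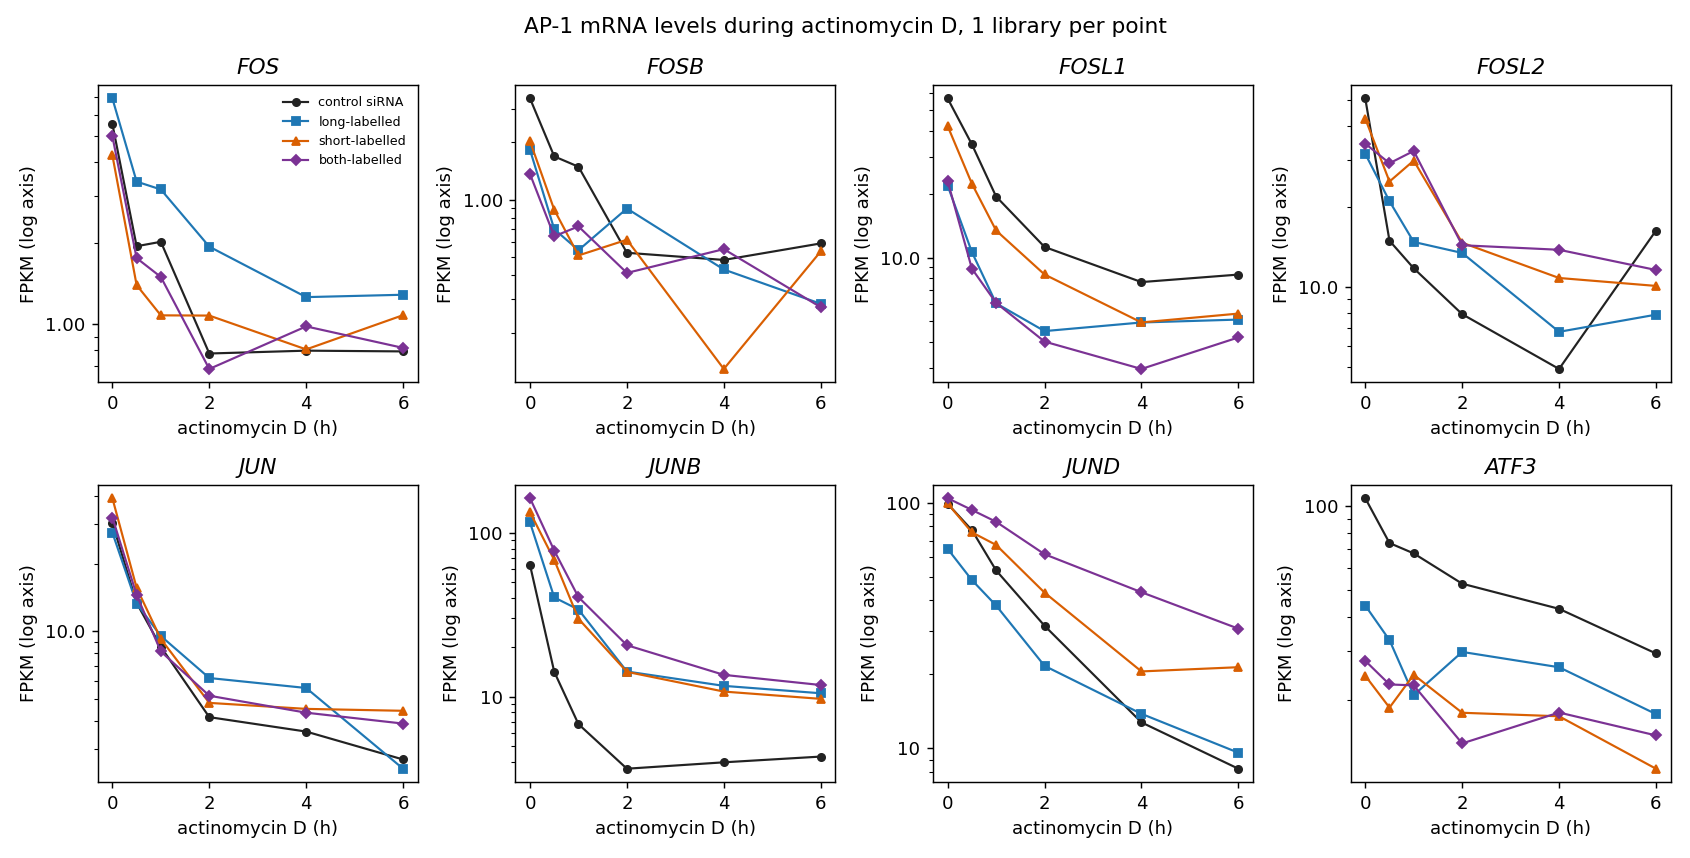
FPKM (log axis) of the 8 AP-1 genes against hours of actinomycin D in the 4 siRNA series; each point is 1 library. JUNB is higher than control and ATF3 and FOSL1 are lower at all 6 times in the 3 knockdown-labelled series, and JUND in the both-labelled series ends at 30.7 FPKM against 8.26 in control.

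Slopes were fitted on log2(FPKM + 0.1) after centring each library on the median of its tested genes, so that a slope of 0 means the course of the median gene. Over 0 to 2 h, the control slope of JUNB was -1.84 ± 0.31 (SE) log2 units per h, that of JUN -1.28 ± 0.23, of FOS -1.13 ± 0.32, of FOSL2 -1.11 ± 0.26, of FOSL1 -1.08 ± 0.23, of JUND -0.76 ± 0.05 and of ATF3 -0.39 ± 0.17. In that fit 6 of 7 members declined faster than the median gene at a limma adjusted p under 0.05, and ATF3 did not pass (adjusted p = 0.164). The share of all 7860 genes called in that direction in control was 6.49%. Those 0 to 2 h courses had the median member at -1.11 and the median of all tested genes at 0.08 log2 units per h. The same fit called 4 of 7 members in each knockdown-labelled series, namely FOSL1, JUN, JUNB and JUND. There the share of all genes called as declining faster was 4.63% in the long-labelled, 6.02% in the short-labelled and 4.4% in the both-labelled series. A straight line through all 6 times gave called declines for 4 of 7 members in control (FOSL1, JUN, JUND and ATF3), where 16.7% of all genes had a called decline. It gave 3 in the long-labelled (13.4% of all genes), 4 in the short-labelled (16.3%) and 3 in the both-labelled series (14.6%). Most of these longer slopes lost their call without the 0 h library of their own series. With the 0 h libraries of all series left out together, only JUN in the short-labelled and JUNB in the long-labelled series lost theirs. Without all libraries of 0.5 h, or all of 4 h, more calls were lost. These were FOSL1 in control and short-labelled, JUN in short- and both-labelled, and JUNB in the 3 knockdown-labelled series. ATF3 in control lost its call without the libraries of 6 h. JUN in control fell by 0.44 log2 units per h (adjusted p = 0.00916), and without the control 0 h library its slope was -0.32 with an adjusted p of 0.0787. FOSL1 in control lost its call without the control library of 0 h or of 4 h (adjusted p = 0.0580 to 0.127). In the knockdown-labelled series, JUN, JUNB and, in the short-labelled one, FOSL1 lost theirs without the 0 h library of the series (adjusted p = 0.0884 to 0.245), JUN also without a 4 h library in the short-labelled and both-labelled series and without the 6 h library in the long-labelled one. JUNB in the long-labelled series lost its call without any 1 of 13 libraries. JUND declined in all 4 series under every alternative run.

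**Figure D2:**
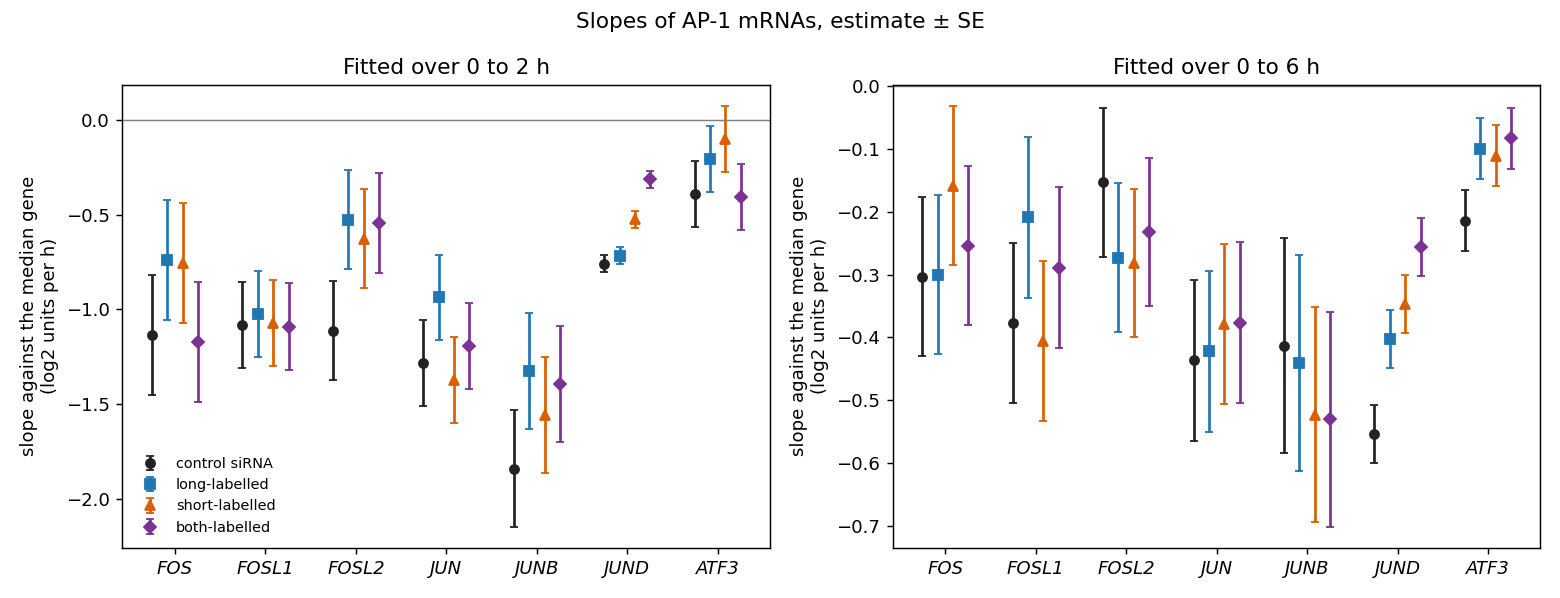
Fitted slope against the median gene, in log2 units per h, for the 7 tested AP-1 genes over 0 to 2 h (left) and 0 to 6 h (right); symbols are estimates and bars are ± SE from limma. Over 0 to 2 h JUNB lies lowest, followed by JUN except in the long-labelled series, where FOSL1 lies below JUN. JUND has the smallest bars and lies at -0.55 in control and -0.26 in the both-labelled series over 0 to 6 h.

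The question of the design was whether mRNA decay changes in cells given the PAN3 siRNAs. Among the AP-1 genes, JUND was the one with a called slope difference from control over 0 to 6 h. JUND was at 104.2, 93.3, 83.5, 61.6, 43.2 and 30.7 FPKM in the both-labelled series, at 99.2, 75.7, 67.2, 43.0, 20.5 and 21.4 in the short-labelled and at 64.8, 48.4, 38.1, 21.6, 13.8 and 9.59 in the long-labelled series. The both-labelled, short-labelled and control series thus began within 6 FPKM of each other and spread apart with time, and the long-labelled series began lower and ended near control. Relative to the median gene, 35.1% of the 0 h signal remained at 6 h in the both-labelled, 26.3% in the short-labelled, 17.9% in the long-labelled and 10.6% in the control series. In FPKM, not taken relative to the median gene, 50% of the start was reached at 2.94, 1.68, 1.29 and 1.13 h in that order. The slope of JUND was 0.30 ± 0.04 log2 units per h less steep in the both-labelled than in the control series (limma adjusted p = 0.000465) and 0.21 ± 0.04 less steep in the short-labelled series (adjusted p = 0.00450). The difference of the long-labelled series pointed the same way at 0.15 ± 0.04 and did not pass (adjusted p = 0.0760). KRT18, a keratin among the markers of other cell types, also had slope differences from control, of -0.12 in the short-labelled (adjusted p = 0.0108) and -0.16 in the both-labelled series (adjusted p = 0.00264), opposite in sign to JUND, and a level lower by -0.36 log2 units in the both-labelled series. The part of other cell types in the AP-1 values was not tested.

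The call in the short-labelled series rested on 1 library. Without its 6 h library the difference was 0.12 with an adjusted p of 0.237. That library was no lower than the 4 h one, at 21.4 against 20.5 FPKM. In the both-labelled series the difference kept its call without any 1 library and ended only where the fit was limited to 0 to 2 h, where it was 0.45 ± 0.06 with an adjusted p of 0.105. The long-labelled difference passed without the short-labelled 4 h, short-labelled 6 h or both-labelled 6 h library (adjusted p = 0.0318, 0.0414 and 0.0275). Among the 3 knockdown-labelled series, the slope of JUND did not pass in any comparison (both-labelled less long-labelled 0.15 ± 0.04, adjusted p = 0.0633), which does not show that they were alike. Without the short-labelled 4 h, short-labelled 6 h or both-labelled 6 h library that comparison passed as well (adjusted p = 0.0222, 0.0291 and 0.0150).

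The other 6 tested members showed no called slope difference from control in any series, which does not show that their declines were alike. Times to 50% of the start in FPKM were not tested. FOSL2 reached 50% at 0.282 h in control and at 0.905, 1.47 and 1.77 h in the long-, short- and both-labelled series. In the same order JUNB took 0.231, 0.329, 0.514 and 0.471 h, and FOSL1 0.669, 0.478, 0.563 and 0.363 h. ATF3 took 1.94, 0.946 and 5.64 h and did not reach 50% in the both-labelled series. For FOS and JUN, times lay on both sides of control. Against the background, 1.83% of all genes had a called slope difference in the long-labelled series, where the count of AP-1 genes was 0 of 7; 8.85% in the short-labelled series, where it was 1 of 7; and 7.05% in the both-labelled series, where it was also 1 of 7. The nearest to a call was FOSL1 in the long-labelled series, at 0.17 ± 0.04 log2 units per h and an adjusted p of 0.0774. JUNB had a large difference in level. Its slopes over 0 to 6 h were within 0.12 log2 units per h of control (limma adjusted p = 0.444 to 0.939). Those slopes depended on the control 0 h library. Without it, the slope of JUNB was steeper than control by -0.21 in the short-labelled and -0.22 in the both-labelled series (adjusted p = 0.0213 and 0.0212). The course of JUNB in control was flat from 2 h on. Over 0 to 2 h its slopes were flatter than control by 0.52, 0.28 and 0.44 ± 0.27 in the long-, short- and both-labelled series. None was called (limma adjusted p = 0.713 to 0.858). At 0.5 h 22.3% of the 0 h FPKM remained in control, against 34.9%, 51.1% and 47.9%. For FOSL2 the control 6 h library of 16.3 FPKM set the direction. The slope differences were -0.12, -0.13 and -0.08 in the long-, short- and both-labelled series with it. They were 0.22, 0.21 and 0.26 without it, and none was called either way (adjusted p = 0.342 to 0.586 without it). Over 0 to 2 h the differences of FOSL2 were 0.59, 0.49 and 0.57 ± 0.34, none called (limma adjusted p = 0.714 to 0.819).

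Levels, averaged over the 6 times, differed from control in most AP-1 genes, with opposite directions for JUNB and for ATF3 and FOSL1. Level calls were common in the whole table: 51.2% of all genes were called in the long-labelled, 63.5% in the short-labelled and 62.1% in the both-labelled series. The AP-1 counts of 4, 6 and 5 of 7 are near those shares and say nothing particular to these genes. With a further limit of 1 log2 unit, chosen after the values had been seen, 9.49%, 19.3% and 17.4% of all genes remained. Past that limit were 3 AP-1 genes in the long-labelled series (JUNB, FOSL1 and ATF3), 2 in the short-labelled (JUNB and ATF3) and 4 in the both-labelled series (JUNB, JUND, FOSL1 and ATF3). The median size of the difference over the 7 members was 0.74, 0.55 and 1.01 log2 units in the 3 series, against 0.34, 0.46 and 0.44 over all tested genes. NEAT1, a long noncoding RNA held in nuclei, was also higher in the 3 series, by 1.12, 1.01 and 0.67 log2 units. It had no called slope difference from control. MALAT1, the other nuclear RNA examined, was not among the tested genes. Its median was 12.3 FPKM in control and lower in the long-, short- and both-labelled series, at 8.03, 6.33 and 9.66 FPKM. It was listed at 0 in 1 short-labelled library. The part of nuclear RNA in the level differences was not tested.

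JUNB was higher than control at each of the 6 times in each knockdown-labelled series. It was at 115.5, 40.3, 34.0, 14.2, 11.6 and 10.5 FPKM in the long-labelled, at 133.4, 68.2, 29.9, 14.2, 10.7 and 9.69 in the short-labelled and at 162.5, 77.9, 40.5, 20.6, 13.6 and 11.8 FPKM in the both-labelled series. The ratio to control was already 1.82, 2.10 and 2.56 before actinomycin D, peaked between 0.5 and 1 h and was 2.43, 2.25 and 2.73 at 6 h. The fitted level was 3.06-fold higher in the long-labelled (1.61 ± 0.17 log2 units, limma adjusted p = 2.51e-07), 3.35-fold in the short-labelled (1.74 ± 0.17, adjusted p = 5.56e-08) and 4.21-fold in the both-labelled series (2.07 ± 0.17, adjusted p = 5.95e-09). These calls held under every alternative run.

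ATF3 moved opposite to JUNB and was lower than control at each of the 6 times in all 3 series. It was at 43.8, 32.9, 20.9, 29.8, 26.3 and 17.8 FPKM in the long-labelled, at 24.5, 18.8, 24.7, 18.0, 17.5 and 11.3 in the short-labelled and at 27.7, 22.8, 22.6, 14.0, 18.1 and 14.9 FPKM in the both-labelled series. The highest of these 18 values, 43.8, lay under the control values up to 2 h. The fitted level was 2.02-fold lower in the long-labelled (-1.01 ± 0.14 log2 units, adjusted p = 7.70e-06), 2.89-fold lower in the short-labelled (-1.53 ± 0.14, adjusted p = 2.83e-08) and 2.79-fold lower in the both-labelled series (-1.48 ± 0.14, adjusted p = 4.75e-08). Only 1 of the 7 listed ATF3 transcripts was above 0, so no isoform can be compared. The slopes of ATF3 were flatter than control by 0.10 to 0.13 log2 units per h and did not pass (adjusted p = 0.239 to 0.453).

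FOSL1 was likewise lower at each of the 6 times, but by unequal amounts. It was at 21.9, 10.6, 6.07, 4.48, 4.93 and 5.09 FPKM in the long-labelled, at 42.0, 22.4, 13.4, 8.32, 4.93 and 5.43 in the short-labelled and at 23.0, 8.86, 6.10, 4.00, 2.97 and 4.19 FPKM in the both-labelled series. The short-labelled series lay between control and both others, with the long-labelled value the same at 4 h to 3 digits. The fitted level was 2.26-fold lower in the long-labelled (-1.18 ± 0.14 log2 units, adjusted p = 1.65e-06), 1.37-fold lower in the short-labelled (-0.45 ± 0.14, adjusted p = 0.00954) and 2.59-fold lower in the both-labelled series (-1.38 ± 0.14, adjusted p = 1.59e-07).

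FOS and JUN each had a called level difference from control in 1 series. FOS was at 6.93, 3.40, 3.17, 1.94, 1.26 and 1.29 FPKM in the long-labelled series, above control at each of the 6 times, and its fitted level rose 1.67-fold (0.74 ± 0.16 log2 units, adjusted p = 0.000964). In the short-labelled series it was at 4.25, 1.40, 1.08, 1.08, 0.806 and 1.08 FPKM and in the both-labelled at 5.01, 1.76, 1.50, 0.681, 0.981 and 0.816 FPKM, with level differences of -0.05 and -0.02 ± 0.16 that did not pass. JUN was at 39.1, 15.6, 9.26, 4.81, 4.52 and 4.44 FPKM in the short-labelled series, a rise of 1.33-fold (0.41 ± 0.13, adjusted p = 0.00970) seen at each of the 6 times. JUN was at 27.5, 13.3, 9.54, 6.21, 5.60 and 2.45 FPKM in the long-labelled and at 32.1, 14.5, 8.14, 5.18, 4.35 and 3.89 in the both-labelled series. Neither difference passed (0.22 and 0.28 ± 0.13, adjusted p = 0.155 and 0.0684). Direct tests of the JUN level among the 3 knockdown-labelled series did not pass (limma adjusted p = 0.217 to 0.752). The rise of JUN can thus not be assigned to the short-labelled series alone.

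The level of JUND was 1.01 ± 0.17 log2 units above control in the both-labelled series (adjusted p = 7.19e-05) and 0.55 ± 0.17 in the short-labelled series (adjusted p = 0.0101), averages over courses that parted with time. The short-labelled call was lost without the 6 h libraries (0.38 ± 0.16, adjusted p = 0.0552). In the long-labelled series JUND was lower by -0.28 ± 0.17 and did not pass (adjusted p = 0.190). Its ratio to control there was 0.656 at 0 h, 0.687 at 2 h and 1.16 at 6 h. Fitted over 0 to 2 h, the lower level of JUND in that series was called (-0.52 ± 0.12, limma adjusted p = 0.00412). FOSL2 was at 31.5, 21.0, 14.8, 13.4, 6.80 and 7.88 FPKM in the long-labelled, at 42.7, 24.8, 29.7, 14.7, 10.8 and 10.1 in the short-labelled and at 34.4, 29.1, 32.3, 14.3, 13.8 and 11.6 FPKM in the both-labelled series. It lay under control at 0 and 6 h and above it at the 4 times between in all 3 series. The averages were 0.61 ± 0.24 (adjusted p = 0.0357) in the short-labelled and 0.68 ± 0.24 (adjusted p = 0.0200) in the both-labelled series. The first was lost without any 1 of 8 libraries, the control and short-labelled ones of 0.5 to 4 h (adjusted p = 0.0535 to 0.104). The second was lost without any 1 of 6, the control ones of 0.5 to 4 h and the both-labelled ones of 1 and 4 h (adjusted p = 0.0511 to 0.0624). FOSB, with no test, was at 1.82, 0.699, 0.542, 0.897, 0.429 and 0.284 FPKM in the long-labelled, at 2.02, 0.883, 0.509, 0.615, 0.129 and 0.534 in the short-labelled and at 1.36, 0.642, 0.722, 0.412, 0.549 and 0.272 FPKM in the both-labelled series, under control at 5 of 6 times in each.

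**Figure D3:**
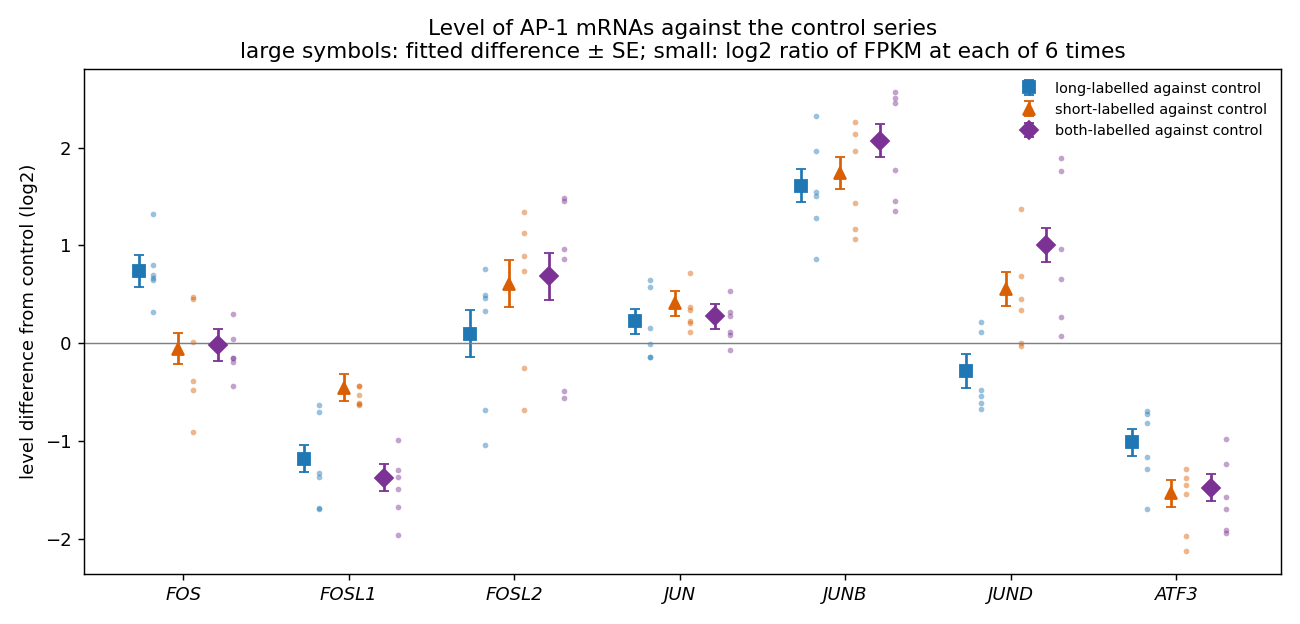
Level difference from the control series on the log2 scale for the 7 tested AP-1 genes; large symbols with bars are fitted differences ± SE, and small points are the log2 ratios of FPKM at the 6 times. All 18 points of JUNB lie above 0 and all points of ATF3 and FOSL1 below, while those of JUND in the both-labelled series spread from a ratio of 1.05 to 3.72.

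The knockdown-labelled series also differed from each other. All of them are single series, so these differences compare 3 transfected cultures. Between the short-labelled and the long-labelled series, 4 of 7 AP-1 genes were called (64.0% of all genes): FOSL1 was higher by 0.73 ± 0.14 log2 units and JUND by 0.84 ± 0.17, and FOS was lower by -0.79 ± 0.16 and ATF3 by -0.52 ± 0.14. Between the both-labelled and the long-labelled series, 5 of 7 were called (57.3% of all genes), with JUND higher by 1.29 ± 0.17, FOSL2 by 0.59 ± 0.24 and JUNB by 0.46 ± 0.17, and FOS lower by -0.76 ± 0.16 and ATF3 by -0.47 ± 0.14. In that comparison the call of FOSL2 was lost without any 1 of 12 libraries (adjusted p = 0.0516 to 0.115) and that of JUNB without any 1 of 5 (adjusted p = 0.0553 to 0.0735). Between the both-labelled and the short-labelled series, 1 of 7 was called, FOSL1, which was lower by -0.92 ± 0.14 (adjusted p = 0.000189), against 17.5% of all genes. In slope, 1 difference was called, against 6.3% of all genes. Over 0 to 6 h FOSL1 was steeper in the short-labelled than in the long-labelled series by -0.20 ± 0.04 log2 units per h (limma adjusted p = 0.0163). Without the short-labelled 6 h library its adjusted p was 0.109. The call was also lost without all libraries of 0.5 h, of 1 h or of 6 h. Over 0 to 2 h the difference was -0.05 ± 0.14 and was not called. From 2 h on, FOSL1 was at 4.48, 4.93 and 5.09 FPKM in the long-labelled series and at 8.32, 4.93 and 5.43 in the short-labelled one. No AP-1 slope was called between the both-labelled series and the long-labelled (3.19% of all genes) or the short-labelled one (0.115%).

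The makeup of the AP-1 mRNA pool differed between the series before actinomycin D was added. The total at 0 h was 416 FPKM in control, 314 in the long-labelled, 387 in the short-labelled and 390 in the both-labelled series. The JUN genes made up 46.3% of it in control, and 66.2%, 70.2% and 76.5% in the long-, short- and both-labelled series. ATF3 made up 25.6% in control, and 14.0%, 6.33% and 7.10%. The FOS genes made up 28.0%, 19.8%, 23.5% and 16.4%. ATF3 was the most abundant member in control at 0 h and JUNB in each knockdown-labelled series. At 6 h, ATF3 still led in control, with 41.7% of 70.7 FPKM, and in the long-labelled series, with 32.5% of 54.9 FPKM. JUND led at that time with 33.4% of 64.0 FPKM in the short-labelled and 39.3% of 78.1 FPKM in the both-labelled series. These shares rest on single libraries and have no error of their own.

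**Figure D4:**
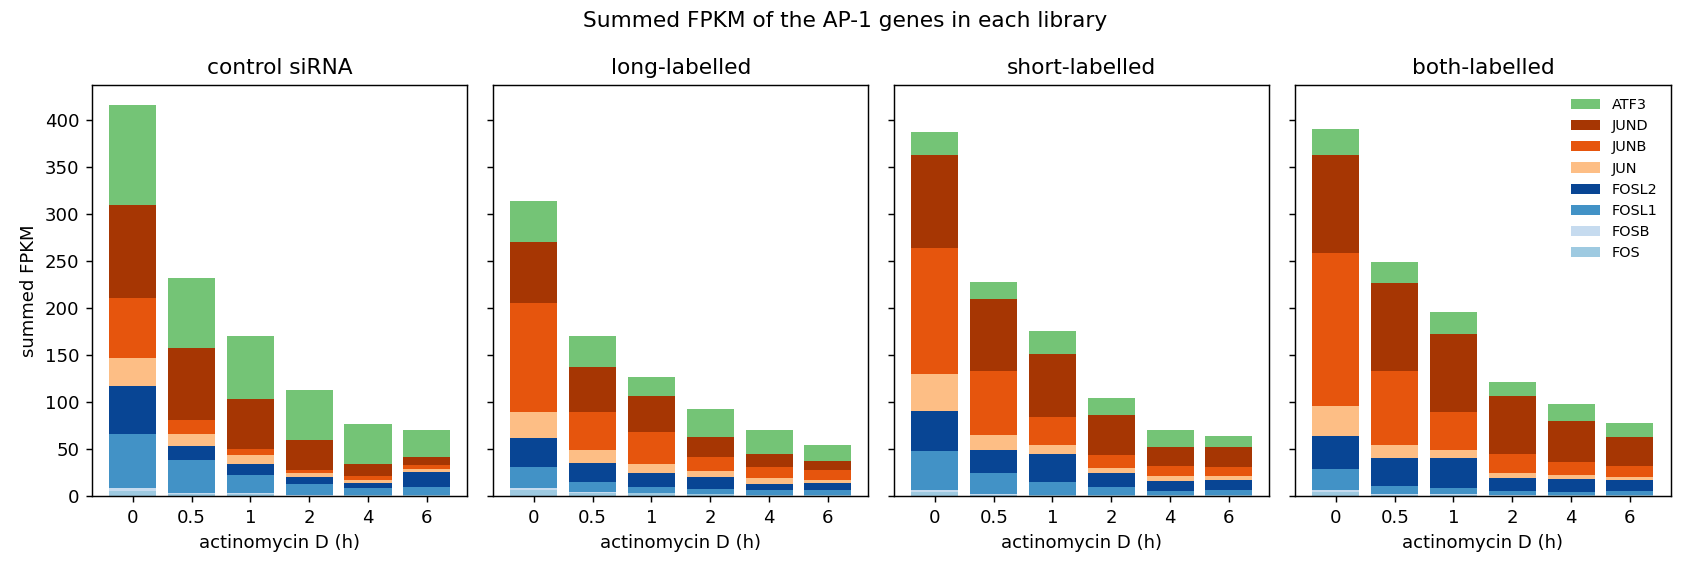
Summed FPKM of the 8 AP-1 genes in each library, stacked by gene, against hours of actinomycin D for each series. At 0 h the JUN genes (orange to brown) take 46.3% of the bar in control and 66.2 to 76.5% in the 3 knockdown-labelled series, and ATF3 (green) takes 25.6% in control.

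The 32 other immediate-early genes tested, of 39 listed, are the group most like the AP-1 genes. In control 23 of them declined faster than the median gene and none slower, against 16.7% and 30.1% of all genes. The slope was higher than in control in 7 and lower in 1 in the long-labelled series, where 1.25% of all genes were higher and 0.585% lower. It was higher in 3 and lower in 1 in each of the other series, where 4.21% and 4.64% of all genes were called higher and lower in the short-labelled and 3.83% and 3.22% in the both-labelled series. Their levels were higher in 12, 16 and 16 and lower in 8, 9 and 8 genes in the long-, short- and both-labelled series, with medians of 0.17, 0.36 and 0.40 log2 units against 0.03 over all tested genes in each. Of all genes, 27.1%, 32.7% and 33% were higher in level and 24.1%, 30.7% and 29% lower. NR4A3, a nuclear receptor, was lower by -2.65, -2.87 and -3.59 log2 units.

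Of 16 tested genes for other basic leucine zipper proteins, of 28 listed, 9 were lower and 3 higher in level in the long-labelled, 7 lower and 2 higher in the short-labelled and 7 lower and 3 higher in the both-labelled series. Over all genes, the lower calls made up 24.1%, 30.7% and 29% and the higher ones 27.1%, 32.7% and 33%. ATF4, the main factor of the integrated stress response and a known activator of ATF3, was lower by -1.07 in the short-labelled and -0.88 log2 units in the both-labelled series. It was also lower in those series than in the long-labelled one, by -0.82 and -0.64 log2 units, whereas ATF3 was lower than control in all 3. A link between ATF4 and ATF3 was not tested. CREM, of the cAMP response, was higher by 0.98, 0.92 and 1.06 in the 3 series. In slope, 3 of the 16 were called in the long-labelled series, among them CEBPD at 0.22 and CEBPG at 0.16 log2 units per h above control, and 2 in each of the other series; the shares of all genes were 1.83%, 8.85% and 7.05%.

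Among 16 tested genes of the kinases and factors upstream of AP-1, of 25 listed, 3 were higher and 3 lower in level in the long-labelled, 4 and 5 in the short-labelled and 3 and 3 in the both-labelled series, where 51.2%, 63.5% and 62.1% of all genes were called in either direction. SRF, the factor that binds the serum response element of FOS, was lower by -1.56, -1.91 and -2.13 log2 units. MAPK14, the p38α kinase, was higher by 1.24 and 1.26 in the short- and both-labelled series. Slope calls numbered 0, 1 and 1, the latter both being RPS6KA1, an ERK-activated kinase, against 1.83%, 8.85% and 7.05% of all genes. Of 15 tested genes among 26 known to respond to AP-1, levels were higher in 8, 7 and 7 and lower in 4, 8 and 8, against 51.2%, 63.5% and 62.1% of all genes called in either direction. They held TNC, a matrix protein, at 2.05, 3.49 and 3.61 log2 units above control, and PLAUR, the urokinase receptor, at -0.52, 1.19 and 0.81. CCND1, or cyclin D1, was lower by -1.26 and -1.12 in the short- and both-labelled series. Slope calls among them were 0, 2 and 2, against 1.83%, 8.85% and 7.05% of all genes. CCND1 had a slope lower than control by -0.11 log2 units per h in both the short- and the both-labelled series. NQO1, a quinone reductase, was lower by -0.07 and -0.06 from a control slope of 0.10 above the median gene.

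Of 13 tested factors that bind AU-rich elements or shorten poly(A) tails, of 17 listed, levels were higher in 4, 2 and 5 and lower in 0, 3 and 3 genes of the long-, short- and both-labelled series, against the same 51.2%, 63.5% and 62.1% of all genes called. ZFP36, which brings deadenylases to AU-rich mRNAs, was higher by 0.55, 1.06 and 0.91 log2 units. Slope calls numbered 1 in each series (1.83%, 8.85% and 7.05% of all genes). BTG2, which binds the CCR4-NOT deadenylase, was 0.23 log2 units per h flatter in both the long- and the short-labelled series, and ZFP36L2, a relative of ZFP36, differed by -0.63 in the both-labelled series.

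The genes most like each AP-1 member over the 24 libraries were found by Pearson's r of the centred log2 values, as a description, since all points share the libraries and the time course. JUNB was most like SGK1 (r = 0.98), a kinase induced by serum and glucocorticoids, C16orf72 (0.96) and SNAI1 (0.95), a repressor of epithelial genes. JUN was most like NUAK2 (0.98), TRIB1 (0.97) and PPP1R3C (0.97), and JUND like FAM46C (0.96), RHOV (0.96) and CLP1 (0.96). FOS was most like GADD45B (0.93), PDE4D (0.93) and SPATA2 (0.92), and FOSL1 like CYR61 (0.94), a secreted matrix-associated protein, PPP1R15A (0.93) and PPP1R15B (0.91). FOSL2 was most like IER2 (0.90), PHF13 (0.88) and ZCCHC3 (0.87), and ATF3 like C19orf23 (0.91), FAM100B (0.91) and NR3C1 (0.91), the glucocorticoid receptor. No AP-1 gene was among the 3 most like any other. Among members, JUN and JUNB were closest (r = 0.87) and JUNB and ATF3 farthest apart (r = -0.15).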

How the data were processed

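RNA sequencing was analysed from 1 table, for which the authors deposited FPKM per RefSeq transcript; per the submitters' processing notes, TopHat 1.3.3 and the build hg19 were used. Neither the program behind the FPKM values nor its annotation is given in the sources used here. Libraries were made by standard Illumina protocols from column-purified cytoplasmic RNA after lipid transfection, per the labels' protocols.

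From these values, transcripts were summed per gene (154 transcripts had no symbol). The mean reached 1 FPKM in 9937 genes, of which 503 holding a dash and 1574 listed at 0 next in time to at least 1 FPKM in the same series were left out, leaving 7860. Values were log2(FPKM + 0.1), less the median of the tested genes in each library. Fold changes on that scale understate changes of low genes. The uncentred median fell by 0.25 to 0.32 log2 units from 0 to 6 h. No spike-in is named, so slopes are relative.

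Models were fitted in limma 3.58.1 (R 4.3.3) to all tested genes and 24 libraries with a mean-variance trend: a line per series (16 residual degrees of freedom), time as a factor with series and series by time (12), and time as a factor with series (15). P-values were adjusted by Benjamini-Hochberg over all genes and called under 0.05. No time point was repeated, so the spread is the scatter of single libraries about the fitted courses, and nothing says that the series came from several cultures. The code was tested on simulated data.

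The genes named were all 8 members, the 3 genes most alike each tested member, up to 4 called genes of each list by smallest p, PAN3, PAN2 and markers. The members and lists were chosen with earlier results of these data known. Alternatives covered the pseudocount, filters, zeros, transcript choice, centring, quantile normalisation, trend, libraries fitted, time range, a straight line, and single times or libraries left out. Sequences came from GENCODE 29 (GRCh38); no hg19 genome was used here.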

Additional observations from a re-analysis of the deposited data

Results flagged for a closer look

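Each AP-1 value was compared with the mean of the other series at the same time, and 28 groups of 6 such deviations, 1 for each tested gene and series, were searched for a time that stood apart. About 1 in 20 such groups is picked out by chance. JUNB in the short-labelled series at 0.5 h was 1.00 log2 units above the other series, with the nearest other time at 0.53. ATF3 in the long-labelled series at 1 h was -0.70 log2 units from the others, with the nearest other time at 0.03; its 20.9 FPKM lay between 32.9 and 29.8 FPKM at the neighbouring times.

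The knockdown-labelled series differed from each other, by tests of the differences themselves, in 11 values. The level of FOS differed by -0.79 log2 units (short-labelled less long-labelled) and -0.76 (both-labelled less long-labelled). FOSL1 differed by 0.73 (short less long) and -0.92 (both less short) in level. Its slope over 0 to 6 h differed by -0.20 log2 units per h (short less long). FOSL2 differed by 0.59 and JUNB by 0.46 in level (both less long). JUND differed by 0.84 (short less long) and 1.29 (both less long), and ATF3 by -0.52 and -0.47 in the same comparisons. With 1 series for each siRNA, the siRNA and the culture cannot be told apart.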

How the results depend on the processing

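The analysis was repeated under 14 alternatives and without each of 6 times and 24 libraries. No AP-1 value that was called changed its direction. The count of slope differences from control in the long-labelled series, 0 as reported, was 1 with a pseudocount of 1 (FOSL1) and 1 without centring (JUND). In the short-labelled series the count of 1 became 0 with 0 to 4 h only, 0 with 0 to 2 h only and 0 with a straight line for each series. In the both-labelled series it became 0 with 0 to 2 h only. Among the knockdown-labelled series the count of 1 became 2 without centring, and 0 with the compared series fitted alone, with 0 to 4 h, with 0 to 2 h and with a straight line. Leaving out a time or a library gave 2 to 6 called control slopes (4 as reported), 4 to 14 in the knockdown-labelled series (10 as reported), 0 to 1, 0 to 2 and 1 to 2 slope differences in the long-, short- and both-labelled series, and 0 to 2 among the knockdown-labelled series. Level counts stayed within 1.5 times of those reported. With a lower filter that admits FOSB, its level in the both-labelled series was called (-0.68 ± 0.27, limma adjusted p = 0.0400) and no other comparison of it was. No paired analysis was possible because the labels give no replicate numbers; time was a factor in the models of differences. The depth is unknown, and FOS and FOSB near 1 FPKM are the least certain values.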
